A study of Mus musculus with 6 samples.

Results

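The genes described are 7 transcription factors of mesenchymal cells, namely the Snail factors SNAI1 and SNAI2, the Twist factors TWIST1 and TWIST2, the Zeb factors ZEB1 and ZEB2, and the homeobox factor PRRX1. They were chosen by gene symbol among the 30854 names on the array, and 14 probes carry their symbols. They were measured in PA6 cells, a murine stromal cell line used as a feeder layer for ES cells, in pure culture. Confluent monolayers in serum-free medium received for 3 h no growth factor (-GFs), recombinant FGF2 at 20 ng/ml, or recombinant BMP4 at 10 ng/ml, with 2 biological replicates per group and 1 Illumina MouseWG-6 v2.0 array for each. The array reads RNA as the brightness of beads, each probe being a population of beads with the same oligonucleotide, and a detection p-value sets each probe against the negative control beads. The median intensity was between 153.4 and 168.1 on the 6 arrays, and the number of arrays limits the precision.

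Snail and Zeb proteins are zinc finger repressors that bind E-box sequences, and Twist proteins are basic helix-loop-helix factors that bind E-boxes as dimers with E proteins. Together they are best known for repressing the cell adhesion genes of epithelia during the epithelial to mesenchymal transition of the embryo, in neural crest and in tumors. Stromal cells and fibroblasts, which are already mesenchymal, also express them, and PRRX1 marks limb and connective tissue mesenchyme.

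The cell type of the cultures was checked on marker genes. All 11 stromal markers were detected, among them DCN (decorin). A marker counted as detected when both arrays of some group showed it. Of 7 epithelial markers 2 were detected, the adhesion molecule CDH1 and the claudin CLDN7, with median intensities of 208.2 and 217.4. EPCAM, KRT8, KRT18, KRT19 and CLDN4 were not. Among endothelial markers KDR and TEK were detected and PECAM1, CDH5, TIE1 and VWF were not. Among haematopoietic ones CD14, LYZ2 and CSF1R were detected, at median intensities of 1708, 275 and 234. PTPRC, CD68 and ITGAM were not. Of the embryonic stem cell markers POU5F1 and DPPA5A were detected, at median intensities of 219.9 and 185.9, and NANOG, SOX2, ZFP42 and UTF1 were not. DES was the only detected marker of 5 for skeletal muscle. All 7 factors had a probe detected on all 6 arrays, and 11 of their 14 probes passed the detection filter.

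After 3 h with FGF2, SNAI1 and TWIST1 were up-regulated and SNAI2 was down-regulated, while TWIST2, ZEB1, ZEB2 and PRRX1 were not called. A gene was called when its log2 fold change was beyond 1 in either direction with an adjusted p under 0.1 in limma. The 2 members called up compare with 2.28% of the 11872 tested genes called up, and the 1 called down with 1.25% called down.

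SNAI1, the founding Snail repressor and an early response gene in many cells, had normalized log2 intensities of 10.40 and 10.61 on the -GFs arrays, 11.93 and 12.12 with FGF2, and 10.90 and 11.26 with BMP4. Both FGF2 arrays were above the other 4, and both BMP4 arrays were above both -GFs arrays. Before normalization the intensities were 1544 and 1489 in -GFs, 3915 and 4409 with FGF2, and 1754 and 2554 with BMP4. With FGF2 SNAI1 rose by 1.52 on the log2 scale (SE 0.18), which is 2.87-fold, with an adjusted p of 0.0100 from limma. In bulk RNA, more cells with the transcript and more RNA per cell cannot be told apart. A dimmer probe of SNAI1, ILMN_1241355, read 7.58 and 7.63 in -GFs, 8.34 and 8.30 with FGF2, and 8.01 and 7.96 with BMP4. Its groups stood in the same order without overlap. Its difference with FGF2 was 0.71 (adjusted p = 0.0370 from limma over all detected probes), short of the fold threshold. It was 1.52 (adjusted p = 0.0264) when the background was removed with neqc. The probe's detection p-values in -GFs were 0.0395 and 0.0470, near the limit of 0.05, so its neqc value rests on signals close to background.

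TWIST1, which acts in the mesoderm and cranial mesenchyme, read 8.31 and 8.49 in -GFs, 9.56 and 9.61 with FGF2, and 8.65 and 8.65 with BMP4. The FGF2 arrays were the highest, and the groups did not overlap. Its rise with FGF2 was 1.18 (SE 0.15), or 2.27-fold, with a limma adjusted p of 0.0106. Over the 6 arrays its values correlated with those of SNAI1 at r = 0.97, and as closely with those of PRRX1 (r = 0.97), which was not called, a description of arrays that fall into 3 groups.

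The bases before the start of both genes called up are shown because both passed the same threshold. They are the 250 bases upstream of the RefSeq start on GRCm38.p6, plus strand, at chr2:167537945-167538194 for Snai1 and at chr12:33957421-33957670 for Twist1, 5′ to 3′. Capitals mark CAGGTG or its reverse complement CACCTG, the E-box letters that Snail and Zeb zinc fingers recognize.
Snai1: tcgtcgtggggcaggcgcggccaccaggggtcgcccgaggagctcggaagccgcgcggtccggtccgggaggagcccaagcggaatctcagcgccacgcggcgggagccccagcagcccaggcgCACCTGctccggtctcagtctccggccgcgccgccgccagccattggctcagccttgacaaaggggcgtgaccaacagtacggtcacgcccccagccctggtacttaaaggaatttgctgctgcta
Twist1: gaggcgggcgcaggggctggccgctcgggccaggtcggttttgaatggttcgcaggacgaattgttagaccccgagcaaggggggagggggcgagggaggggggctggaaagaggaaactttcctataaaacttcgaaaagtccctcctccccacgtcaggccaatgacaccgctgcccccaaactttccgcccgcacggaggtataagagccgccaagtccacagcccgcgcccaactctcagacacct

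The Snai1 window held these letters 1 time, as CACCTG starting 126 bases before the start, and the Twist1 window held none. Of the 32851 windows of the same length in the table, 17.2% held CAGGTG on either strand. Other motifs were searched on both strands. The general E-box CANNTG, which includes CAGGTG, was in 66.2% of all windows, the AP-1 letters TGANTCA in 6.75%, the EGR letters GCGNGGGCG in 4.70% and the ETS letters CCGGAA in 12.0%. Beyond the E-box of Snai1, none of these was in either window. Windows were also searched for Twist2, Prrx1 and 4 starts of Zeb2, and those of Snai2 and Zeb1 were not analysed here, so that 5 of the 7 members had one. They held GCGNGGGCG 2 times in Twist2 and TGANTCA 2 times in 1 of the Zeb2 windows. A match is a description of letters and not of binding.

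SNAI2 encodes Slug, the Snail factor of neural crest and of many adult stromal and stem cells. It read 12.24 and 11.53 in -GFs, 10.64 and 9.96 with FGF2, and 12.60 and 12.34 with BMP4. Both FGF2 arrays were below the other 4, and the BMP4 arrays were the highest. SNAI2 fell by 1.58 with FGF2 on the log2 scale (SE 0.31), that is 2.99-fold, with a limma adjusted p of 0.0342. Within the replicates the differences were -1.60 and -1.56, so the fall was nearly the same in both. Replicate 2 lay 0.71 below replicate 1 in -GFs and 0.67 below in FGF2. The fits with an array left out had no replicate block, so without a -GFs or FGF2 array the SNAI2 difference includes part of this shift. SNAI2 was no longer called without -GFs replicate 1 (-1.23, adjusted p = 0.110), without FGF2 replicate 1 (-1.92, adjusted p = 0.103) or without FGF2 replicate 2 (-1.24, adjusted p = 0.235). Without FGF2 replicate 2 the calls of SNAI1 (1.42, adjusted p = 0.111) and TWIST1 (1.16, adjusted p = 0.112) ended too, while all genes called up went from 271 to 71 and those called down from 148 to 35.

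**Figure D1:**
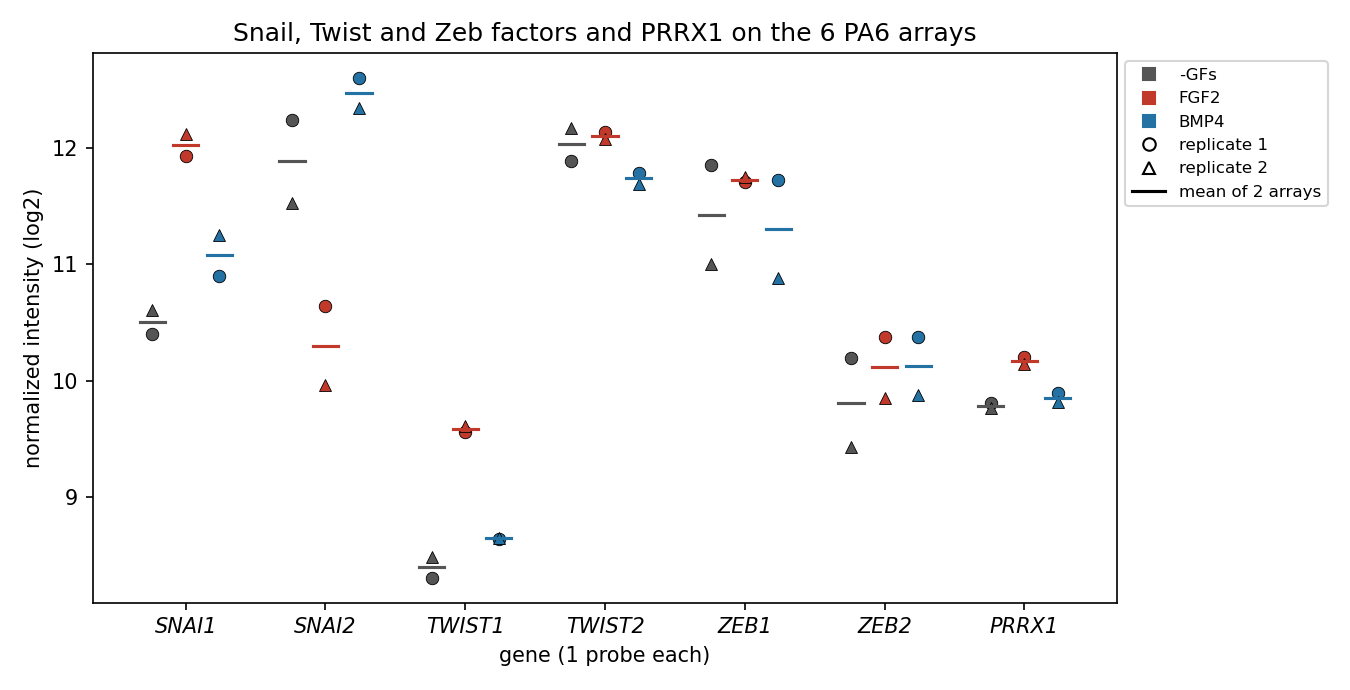
Normalized log2 intensity of the 7 factors on the 6 arrays, by group (color) and replicate (circle or triangle), with a bar at the mean of the 2 arrays. The FGF2 arrays are the highest for SNAI1, TWIST1 and PRRX1 and the lowest for SNAI2, and levels of different genes cannot be compared.

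The other 4 factors were not called with FGF2. TWIST2, a Twist factor of dermal and osteoblast precursors, read 11.89 and 12.17 in -GFs, 12.13 and 12.08 with FGF2, and 11.78 and 11.69 with BMP4. The FGF2 arrays lay between the -GFs arrays. Its difference with FGF2 was 0.07 (95% confidence interval -0.30 to 0.45), and its sign turned with median scaling (-0.01).

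PRRX1 read 9.81 and 9.77 in -GFs, 10.20 and 10.14 with FGF2, and 9.89 and 9.82 with BMP4. Both FGF2 arrays were above the other 4, by a small step. The difference with FGF2 was 0.38 (95% confidence interval 0.05 to 0.72), and limma gave an adjusted p of 0.157, or 0.0409 with the replicate as a block, where the difference was still short of the fold threshold. Of its other probes, ILMN_3057018 gave 0.41 and ILMN_2614463 0.25. The dimmest detected probe, ILMN_1227686, gave 0.61 (adjusted p = 0.0688 from limma), and 1.31 (adjusted p = 0.0424) with neqc, which passed the threshold. Its detection p-values in -GFs were 0.0214 and 0.0427, near the limit of 0.05. The probe of largest mean gave 0.44 with neqc (limma adjusted p = 0.229) and was not called. ILMN_3134079 was not detected on any array.

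ZEB1 differed more between replicates than between groups. It read 11.85 and 11.00 in -GFs, 11.71 and 11.75 with FGF2, and 11.73 and 10.88 with BMP4. Replicate 2 was lower by 0.85 in -GFs and by 0.84 with BMP4, and the FGF2 arrays differed by 0.04. The median absolute difference between replicates over all tested genes was 0.23 in -GFs, 0.17 with FGF2 and 0.22 with BMP4. The difference of ZEB1 with FGF2 was -0.15 in replicate 1 and 0.75 in replicate 2, so its mean of 0.30 (95% confidence interval -0.54 to 1.14) had no common direction.

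ZEB2, also called SIP1 for its binding to SMAD proteins, read 10.19 and 9.43 in -GFs, 10.38 and 9.86 with FGF2, and 10.38 and 9.88 with BMP4. Replicate 2 was lower in all 3 groups, by 0.76, 0.52 and 0.50. The mean difference from -GFs was 0.30 with FGF2 and 0.32 with BMP4, with 95% confidence intervals of -0.45 to 1.06 and -0.44 to 1.07. Within replicates 1 and 2 the differences were 0.18 and 0.43 with FGF2 and 0.18 and 0.45 with BMP4, all above 0, and with the replicate as a block the interval with FGF2 was 0.01 to 0.60 (limma adjusted p = 0.114). ILMN_2419650 and ILMN_1227793, the other probes of ZEB2, were not detected on any array. Under the older symbol ZFHX1B, which the symbol rule leaves out, a dim probe detected on 5 arrays gave 0.30 with FGF2 and 0.23 with BMP4. The probe named ZFHX1A, an older symbol of Zeb1, was not detected.

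**Figure D2:**
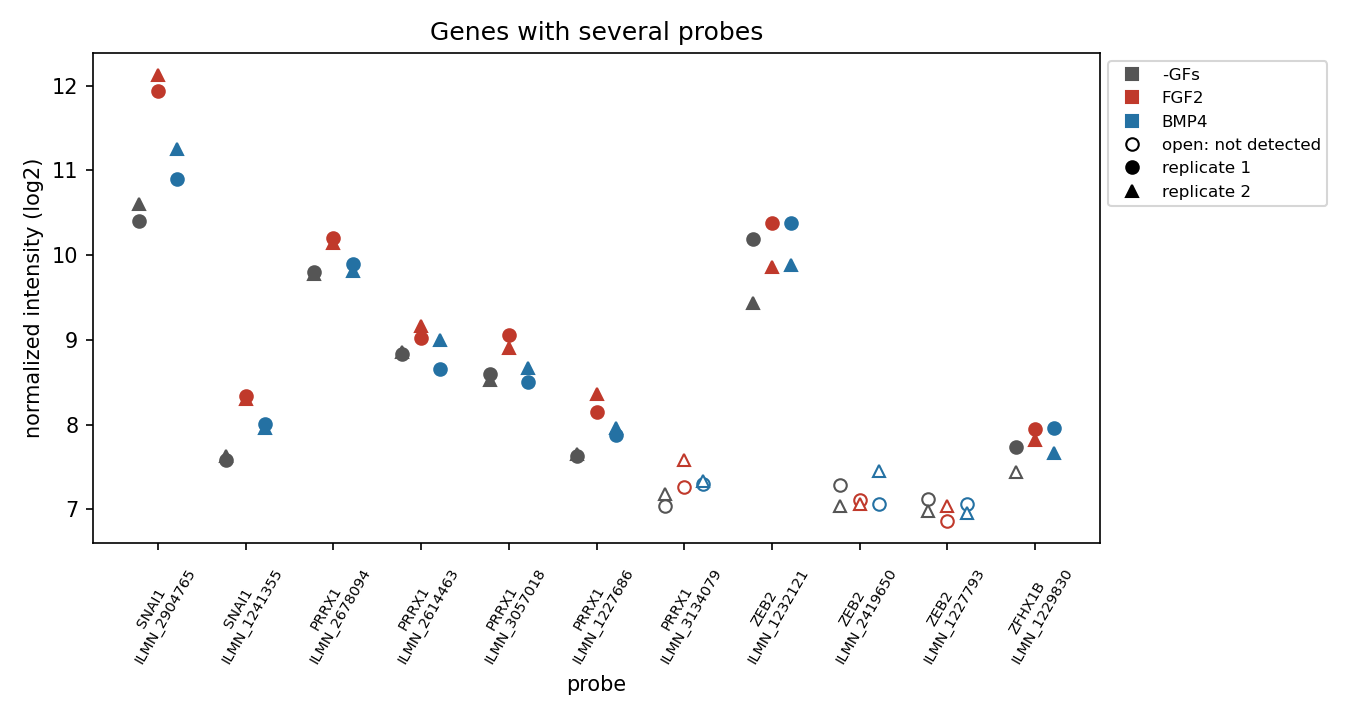
Normalized log2 intensity of each probe of SNAI1, PRRX1 and ZEB2, and of the probe under the older name ZFHX1B, by group (color) and replicate (circle or triangle), with open symbols where the detection p-value was not under 0.05. Both probes of SNAI1 are highest with FGF2, and 2 probes of ZEB2 and 1 of PRRX1 are open on all 6 arrays.

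Adipocyte markers also differed between the replicates, PA6 cells being preadipocytic. The summed intensity of the 8 markers was 3799 and 6557 in -GFs, 3300 and 6370 with FGF2, and 3389 and 8002 with BMP4, replicate 1 before replicate 2. PPARG, the master regulator of adipocytes, had intensities of 2602 and 2134 in -GFs, 2238 and 3037 with FGF2, and 2278 and 3399 with BMP4. It was thus lower in replicate 2 in -GFs and higher there in the other groups. ADIPOQ, the hormone adiponectin, had intensities of 156.0 and 2454 in -GFs, 157.8 and 1658 with FGF2, and 148.7 and 2372 with BMP4, and was detected on the replicate 2 arrays alone. FABP4 and CD36 were not detected on any array. SNAI2 and ZEB2 were lower in replicate 2 in all 3 groups, and ZEB1 in -GFs and with BMP4 alone. The part of the marker difference in these values was not tested.

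**Figure D3:**
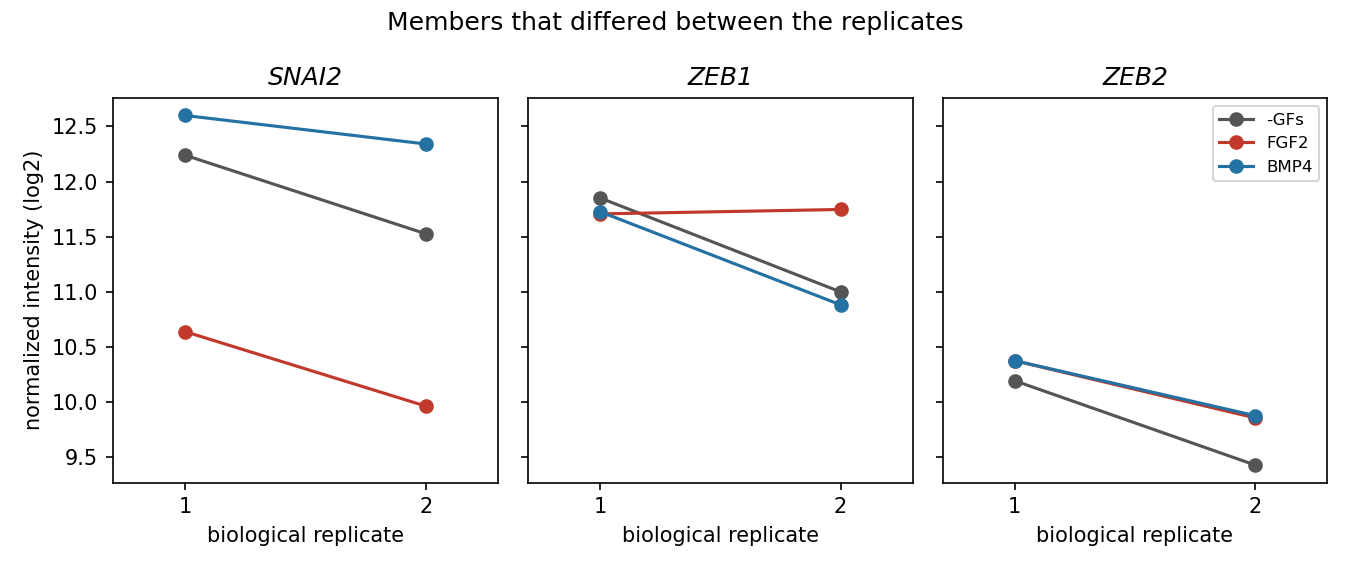
Normalized log2 intensity of SNAI2, ZEB1 and ZEB2 in each biological replicate, with a line joining the 2 arrays of a group. The SNAI2 lines of -GFs and FGF2 run nearly parallel, while the FGF2 line of ZEB1 is flat and those of -GFs and BMP4 fall by 0.85 and 0.84.

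BMP4 called none of the 7 factors in limma, where 0.00842% of tested genes, a single gene, were called. At an unadjusted p under 0.05 there was 1 member, SNAI1, beside 1.81% of tested genes, and the methods' t-test at that p with the same fold threshold called 0 members and 0.0674% of tested genes. SNAI1 differed from -GFs by 0.57 (95% confidence interval 0.14 to 1.01) and SNAI2 by 0.59 (-0.14 to 1.32), each with an adjusted p of 0.999 or more. The interval of SNAI2 is from the fit without the replicate number, and its differences within the replicates were 0.36 and 0.81. Its difference was 0.23 without -GFs replicate 2 and 0.95 without -GFs replicate 1. With the replicate as a block the intervals were 0.28 to 0.86 for SNAI1, 0.27 to 0.90 for SNAI2 and 0.02 to 0.61 for ZEB2. These 3 members then had an unadjusted p under 0.05, beside 7.02% of tested genes, and limma adjusted p-values of 0.168, 0.197 and 0.663, so that none was called. TWIST1 differed by 0.25, PRRX1 by 0.07, ZEB1 by -0.12 and TWIST2 by -0.29. These intervals do not show that BMP4 left the factors unaltered. The comparisons of FGF2 and BMP4 with -GFs share the -GFs arrays.

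The direct test between the factors called SNAI2 down with FGF2 relative to BMP4, by -2.17 (SE 0.31, 95% confidence interval -2.90 to -1.44, limma adjusted p = 0.0171). It was the 1 member called down, against 1.04% of all tested genes, and 0 members were called up, against 2.03%. The call of SNAI2 ended without FGF2 replicate 2 (-1.82, adjusted p = 0.141). SNAI1 was higher with FGF2 than with BMP4 by 0.95 (adjusted p = 0.0383) and TWIST1 by 0.94 (adjusted p = 0.0218), both past the adjusted p and just short of the fold threshold. By adjusted p alone these 2 members were up, as were 4.84% of tested genes. With the replicate as a block 5 members were up by adjusted p alone, as were 16.3% of tested genes, the added ones being TWIST2 (adjusted p = 0.0711), ZEB1 (0.0986) and PRRX1 (0.0948). TWIST1 passed the fold threshold with neqc (1.24, adjusted p = 0.0392) and SNAI1 passed it without BMP4 replicate 2 (1.12, adjusted p = 0.0810). The adjusted p of SNAI1 was above 0.1 without FGF2 replicate 1 (0.170), FGF2 replicate 2 (0.278) or BMP4 replicate 1 (0.160), and that of TWIST1 without any one of the FGF2 and BMP4 arrays (0.109 to 0.200). The 4 others differed by 0.42 (ZEB1), 0.37 (TWIST2), 0.32 (PRRX1) and -0.01 (ZEB2), and none of them was called.

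**Figure D4:**
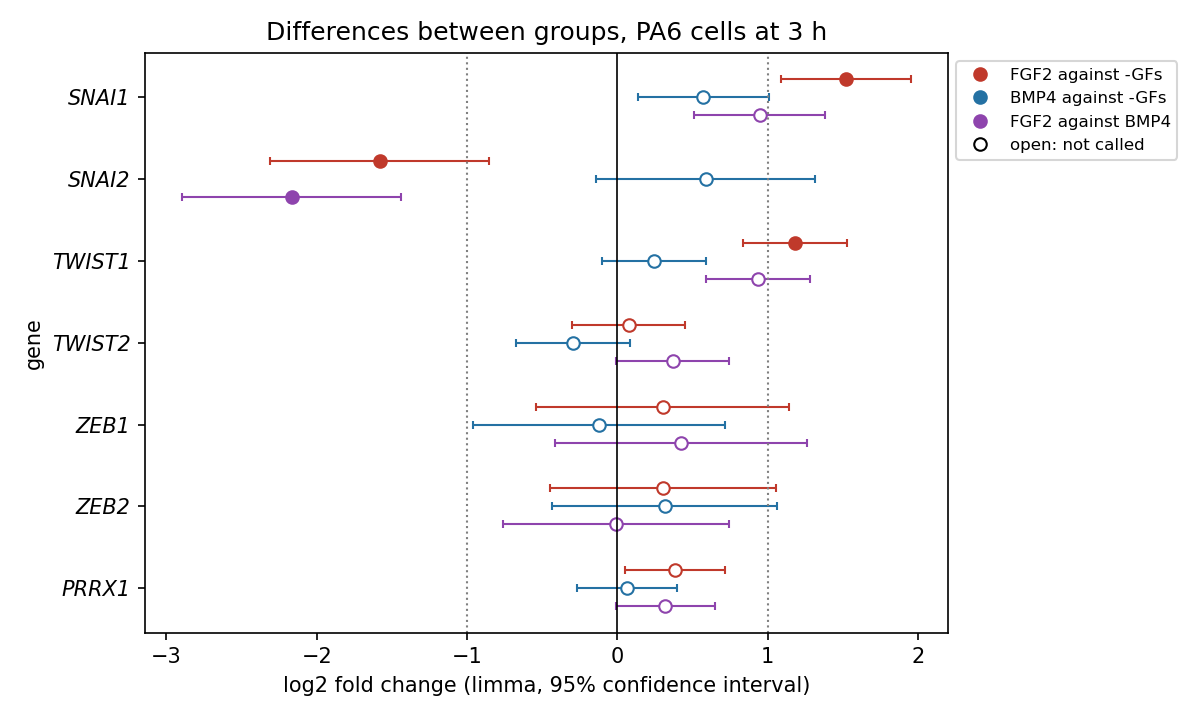
Log2 fold change of each factor in the 3 comparisons, with the 95% confidence interval from limma, dotted lines at the fold threshold, and filled points for called genes. SNAI1 (1.52) and TWIST1 (1.18) are called up and SNAI2 (-1.58) down with FGF2, and SNAI2 (-2.17) is called down against BMP4.

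Genes whose values ran most like those of SNAI1 over the 6 arrays were LOC100041797 (r = 0.99), 2210008N01RIK, RRP15, RAB35 and UCK2, all with r of 0.99. RRP15 was called with FGF2 (1.43), and the others had smaller differences, from 0.24 to 0.64. For SNAI2 they were FAF1, 9030624J02RIK, 6430598A04RIK, 4932441N08RIK and C920006O11RIK, each with r of 0.99 or more. None of these was called, and their differences with FGF2 were between -0.82 and -0.17. Of these, 6430598A04RIK was detected on 3 of the 6 arrays and 4932441N08RIK on 4, so their values are in part not above background. With 6 arrays in 3 groups, such correlations describe this set of arrays only.

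Among known inducers of Snai1 transcription, 15 of 22 were tested. With FGF2 4 were called up and 0 down, beside 2.28% and 1.25% of all tested genes. The list was chosen with earlier results of these data known, so its counts and median are a description and no independent test. The median difference was 0.36, against -0.02 over all tested genes, and 13 of 15 were higher, against 47.5% of all tested genes. The zinc finger factor EGR1, an immediate early gene, rose by 4.19 (mean 10.18 in -GFs, 14.37 with FGF2, limma adjusted p = 0.00459). SMAD3, a transducer of TGFβ, rose by 1.49 (adjusted p = 0.0103), and the AP-1 subunits JUN and FOS rose by 1.24 (adjusted p = 0.0383) and 1.61 (adjusted p = 0.0920). With BMP4 0 were called, and 12 of 15 were lower than in -GFs, against 49.6% of all tested genes. With median scaling 13 of 15 were lower, against 66.4%. Against BMP4, EGR1 (4.19), SMAD3 (2.02) and JUN (1.80) were called up with FGF2, as were 2.03% of all tested genes. FOS (1.45, limma adjusted p = 0.130) was called only with the replicate number as a block (adjusted p = 6.585e-05). FOS was detected on 1 of the 2 BMP4 arrays, so its difference from BMP4 rests in part on a value not above background. FOS was not called up with neqc. Fewer of these genes were called up when any one of the -GFs or FGF2 arrays was left out.

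Of 32 other mesenchymal transcription factors, 19 were tested. With FGF2 1 was called up and 3 down, beside 2.28% and 1.25% of all tested genes. Their median was 0.04, against -0.02 over all tested genes. HIC1, a zinc finger repressor that marks mesenchymal progenitors, rose by 1.81 (adjusted p = 0.00463). The odd-skipped factor OSR2 fell by 1.37 (adjusted p = 0.0546), and the homeobox factor SIX5 fell by 1.13 (adjusted p = 0.0362). Without FGF2 replicate 1, and also without FGF2 replicate 2, the 3 called down became 0, and with either of the -GFs arrays left out they became 1. Against BMP4 1 was called up, HIC1 (2.17), and 2 down, among them OSR2 (-1.61), beside 2.03% and 1.04% of all tested genes. With the replicate as a block 3 were called down, since HOXA5 (-1.09, adjusted p = 0.177) was called only there (adjusted p = 5.558e-05). With BMP4 against -GFs 0 of 19 were called.

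Mesenchymal genes, among them collagens, matrix proteins and integrins, were tested in 31 of 34 cases, with a median of 0.02 with FGF2. With FGF2 1 was called up and 0 down, beside 2.28% and 1.25% of all tested genes. Of the 11 stromal markers none was called with FGF2, where 9 were lower than in -GFs, against 52.5% of all tested genes, and their median difference was -0.26 (-0.41 with median scaling), against -0.02 over all tested genes (-0.10 with median scaling). The fibronectin receptor subunit ITGA5 rose by 2.54, from a mean of 10.30 to 12.84 (adjusted p = 0.00546), and it was 2.80 higher than with BMP4. FOXC2 differed by 0.86 and the integrin subunit ITGB1 by 0.61, and neither was called. The matrix metalloproteinase MMP3 passed the filter through the FGF2 arrays alone, where it was at least 1.12-fold above -GFs, the mean with FGF2 being set against the lowest signal of a detected probe on the -GFs arrays. With neqc 2 genes of the list were called up in place of 1, the added one being MMP3, which entered the test only through the arrays where it was high. VIM, FN1 and COL1A1 differed by -0.26, -0.18 and -0.37 and were chosen after their values were seen. Of the 31 tested genes of the list, 17 were higher with FGF2 and 14 lower, beside 47.5% of all tested genes higher. With median scaling 9 were higher and 22 lower, beside 39.6% of all tested genes higher. With BMP4 0 of 31 were called.

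Epithelial genes that the factors repress were largely below detection, since 7 of 31 were tested and 24 were not. None of the 7 was called with either factor, beside 2.28% up and 1.25% down of all tested genes with FGF2. The median with FGF2 was 0.03. CDH1, the E-cadherin gene and the best known target of Snail and Zeb factors, read 7.77 and 7.73 in -GFs, 7.70 and 7.64 with FGF2, and 7.78 and 7.85 with BMP4. These values lie near the limit of detection. The polarity gene LLGL2 differed by -0.80 with FGF2 (adjusted p = 0.0295), short of the fold threshold, and it was called with neqc (-1.10, adjusted p = 0.0432). OVOL2 differed by 0.06. GRHL1 was not detected in -GFs and entered the test only through treated arrays, so its lower bound of 1.08-fold with FGF2 is no test of a rise.

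**Figure D5:**
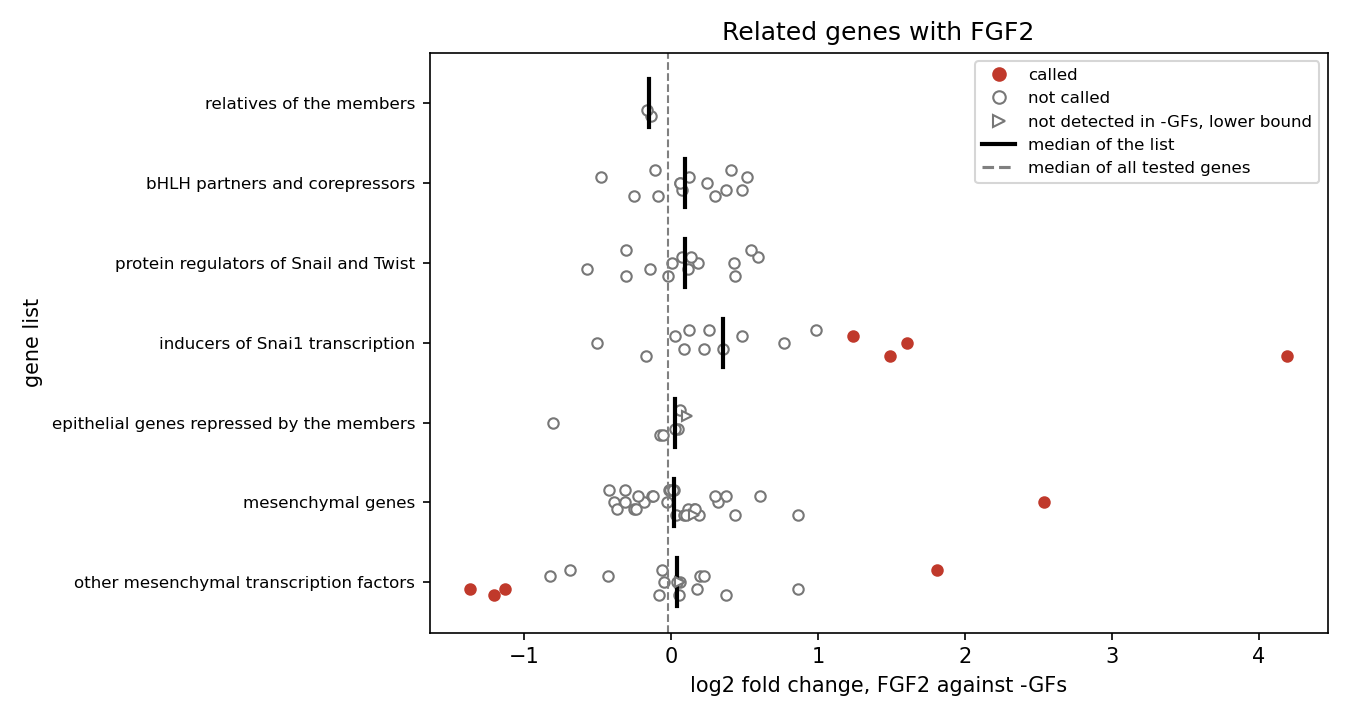
Log2 fold change with FGF2 against -GFs of the tested genes of 7 lists, with filled points for called genes, triangles at the lower bound of genes not detected in -GFs, a black bar at the median of each list and a dashed line at the median of all tested genes (-0.02). The called genes of the inducers of Snai1 lie on the right, with EGR1 at 4.19, and the medians of the lists other than the inducers lie between -0.15 and 0.10. With median scaling the medians of the epithelial genes, the mesenchymal genes and the other transcription factors turned negative.

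Partners and corepressors of the factors were tested in 14 of 19 cases, with a median of 0.10 with FGF2. In the 3 comparisons 0 were called, and with FGF2 2.28% of all tested genes were called up and 1.25% down. The largest differences were 0.52 for the Polycomb subunit SUZ12, 0.48 for the probe named TCF4, -0.48 for the histone methyltransferase EHMT2 and 0.41 for the deacetylase HDAC2. TCF4 is the symbol of an E protein and an older name of TCF7L2, which the array lists apart, and the deposited table does not settle which of them the probe reads. Regulators of the stability and localization of Snail and Twist proteins were tested in 14 of 20 cases, and 0 were called. FBXL14, a ubiquitin ligase adaptor for Snail and Twist proteins, differed by 0.59 (adjusted p = 0.0878) and PPIL2 by -0.58 (adjusted p = 0.0657), both short of the fold threshold, and FBXL5 and FBXO11 by 0.54 and 0.44. Of 10 relatives of the members 2 were tested, SNAI3 (-0.14) and PRRX2 (-0.17), and neither was called. With median scaling the median of all tested genes with FGF2 was -0.10, and the medians of the mesenchymal genes (-0.08), of the other transcription factors (-0.05) and of the epithelial genes (-0.01) turned negative.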

How the data were processed

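RNA of PA6 cells was measured on 6 arrays, with group and replicate taken from the labels. The dose of BMP4 is that of the labels, and the methods on the co-cultures state a lower one. The authors deposited an intensity per probe and array (its beads' mean brightness), not normalized between arrays, with a detection p-value. GenomeStudio 2011.01 is named in the submitters' processing notes. Lines without a probe ID (1) or repeated at the end (5) were dropped, and 9 columns that lack a heading and hold values on 2045 lines were not used. Those lines hold 4 of the 14 probes of the members. On them the replicate correlation of log2 intensities was 0.951 to 0.980, against 0.970 to 0.985 on the other lines.

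The methods name cubic spline normalization, which was rewritten in R 4.3.3 with 452 quantiles and followed by log2. A probe was kept when both arrays of some group had a detection p under 0.05 (16111 probes), and each gene was represented by the probe of largest mean. limma 3.58.1 was fitted to 3 groups without a block (3 residual degrees of freedom), and adjusted p-values are Benjamini-Hochberg over all 11872 genes. The procedure was tested on simulated data. List genes were matched through RefSeq symbols and synonyms (GRCm38.p6), the source of the promoters too, and list genes without a detected probe were not tested. The members and lists were chosen with earlier results of these data known. Named genes are all members and the called genes of each list. Where a list had fewer than 4 called, genes with the largest differences with FGF2 were added up to 4. Part of the cell type markers and the 5 genes most correlated with SNAI1 and SNAI2 are named too. VIM, FN1 and COL1A1 were added after their values were seen. The values of 1 list gene are not reported here.

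The replicate numbers pair the arrays, since per the labels each biological replicate comprised an untreated, an FGF2 and a BMP4 well. Deviations from the group means correlated across genes at 0.602 (-GFs with FGF2), 0.741 (-GFs with BMP4) and 0.579 (FGF2 with BMP4). The alternatives were other normalizations (quantile, neqc, median scaling), other detection filters, averaging a gene's probes, the replicate block, eBayes with trend and robust options, no fold threshold, the methods' t-test, and leaving out each array. The methods name limma, with the thresholds used here, for the arrays. Their unpaired t-test stands apart from the array methods, for values given as means with SEM, and its fold threshold and Benjamini-Hochberg step were added here.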

Additional observations from a re-analysis of the deposited data

How the results depend on the processing

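With quantile normalization, median scaling, other detection filters, the mean of the probes or eBayes with trend and robust options, the calls of SNAI1, SNAI2 and TWIST1 with FGF2 did not change, and SNAI1 was between 1.12 and 1.52. The paired model, blocked on the replicate, changed no call of a member (SNAI1 1.52, adjusted p = 3.151e-07, SNAI2 -1.58, adjusted p = 4.731e-07). It left 298 genes up and 171 down with FGF2, and for BMP4 9 up and 1 down in place of 1 and 0. With neqc, 432 genes were up and 362 down with FGF2, and against BMP4 1 member was called up, among 364 genes up and 276 down. With median scaling 208 were up and 209 down. Without the fold threshold 2 members were up against BMP4, among 575 genes up and 501 down, and 716 genes were up and 686 down with FGF2. The methods' t-test after Benjamini-Hochberg called 0 of the 11872 genes in every comparison, and so 0 members up and 0 down with FGF2 and 0 down against BMP4 (SNAI1 1.52, adjusted p = 0.261, SNAI2 -1.58, 0.382, TWIST1 1.18, 0.241). At its unadjusted threshold it called 2 members up and 0 down with FGF2, among 202 genes up and 124 down, and against BMP4 0 up and 1 down, among 198 and 97. The cause of these differences between tests was not tested.

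With 1 array left out, the lone array of its group is assumed to vary like the others. With FGF2, SNAI1 then ranged from 1.42 to 1.62, SNAI2 from -1.93 to -1.23 and TWIST1 from 1.09 to 1.27, members called up from 0 to 2 and members called down from 0 to 1. Against BMP4, members called up ranged from 0 to 1 and called down from 0 to 1. Some uncalled values changed sign. Over the arrays left out, differences with FGF2 ranged from -0.0673 (without -GFs replicate 1) to 0.21 for TWIST2, from -0.12 (without -GFs replicate 2) to 0.73 for ZEB1 and from -0.0773 (without -GFs replicate 2) to 0.69 for ZEB2. With BMP4 they ranged from -0.55 to 0.31 (without -GFs replicate 1) for ZEB1, which was 0.30 without BMP4 replicate 2, and from -0.0668 (without -GFs replicate 2) to 0.70 for ZEB2. Against BMP4 they ranged from -0.27 to 0.25 (without FGF2 replicate 2) for ZEB2, which was 0.24 without BMP4 replicate 1, and from -5e-04 (without BMP4 replicate 2) to 0.85 for ZEB1. Median scaling turned TWIST2 with FGF2 (-0.0116) and PRRX1 with BMP4 (-0.0098). Groups of 2 arrays limit every call, and probes near the background can understate differences on the log2 scale.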
